A study of Sus scrofa with 6 samples.

Results

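The 7 subunits of respiratory complex I that are encoded by mitochondrial DNA, ND1, ND2, ND3, ND4, ND4L, ND5 and ND6, were followed in RNA-seq libraries of pig (Sus scrofa) oocytes. They were found by their Ensembl symbols, and all 7 were among the 25880 genes counted, together with the 6 other protein-coding genes of the mitochondrial genome (COX1, COX2, COX3, ATP6, ATP8 and CYTB). Malathion libraries were made from metaphase II oocytes (3 libraries) matured in vitro with 1 mM malathion, an organophosphate insecticide brought into the medium from a DMSO stock, and control libraries from metaphase II oocytes with the label control (3 libraries). Ovaries came from a slaughterhouse, and the labels name no breed, animal age, exposure time, number of oocytes per library or vehicle for the control. Nothing in them ties a replicate to its own culture, so each p reflects how far these samples lie apart, a spread that may be technical. Melatonin is named in the study's title, but no sample label used here names it.

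Complex I (NADH:ubiquinone oxidoreductase) takes electrons from NADH, passes them to ubiquinone and pumps protons across the inner mitochondrial membrane. The mitochondrially encoded subunits form the core of its membrane arm, while nuclear genes encode the arm that oxidises NADH and the accessory subunits around the core. Mitochondrial mRNAs are cut out of long transcripts that span many genes, and processing, polyadenylation and decay then set the amount of each mRNA. The ND6 gene lies on the opposite strand from the other members, and its mRNA in human cells lacks a poly(A) tail. A mature oocyte carries a very large stock of mitochondrial DNA and relies on oxidative phosphorylation for much of its ATP.

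Library depth and make-up set the precision of these values. Total gene counts ranged from 25816040 to 42312341 in malathion libraries and from 27105849 to 29471856 in control libraries. Genes with a count numbered 12211, 13589 and 8492 in malathion replicates 1, 2 and 3, against 14099, 14707 and 8344 in control replicates 1, 2 and 3, so both replicate 3 libraries detected fewer genes. The summed level of 14 oocyte markers was 84505, 61369 and 4479 CPM (counts scaled to 1000000 gene counts per library) in malathion replicates 1, 2 and 3, against 77741, 31108 and 4670 CPM in control replicates 1, 2 and 3. Each library detected 12 to 14 of these. Single markers did not all follow the sum. ZP2, MOS and NOBOX were highest in malathion replicate 3 (2158, 1458 and 54.2 CPM) and OOEP in control replicate 3 (382 CPM). The remaining oocyte markers were highest in a library of replicates 1 or 2. The 15 cumulus and granulosa markers with an identifier summed to between 69.2 and 745 CPM in malathion and between 39.1 and 678 CPM in control libraries, mostly VCAN and KITLG. AMH had no count in any library, and FSHR reached at most 0.540 CPM. For theca, stroma, blood and endothelium, the sum over 10 markers was at most 22.7 CPM in malathion and 20.2 CPM in control libraries. In libraries of this kind, fewer mitochondria or oocytes and less RNA in each cannot be told apart.

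Summed over the 7 genes, complex I stood at 3155, 2943 and 1651 CPM in malathion replicates 1, 2 and 3, against 4243, 9097 and 584 CPM in control replicates 1, 2 and 3. Control replicate 2 was the highest and control replicate 3 the lowest of the 6, so the malathion values lay inside the control range. The mean was 2583 ± 814 CPM with malathion and 4641 ± 4270 CPM in the control (SD, n = 3 each). On the log2 scale the groups differed by −0.19 (malathion minus control, exact two-sided permutation test, p = 0.8, where 0.1 is the smallest possible). The difference took the other sign without malathion replicate 3 (0.11), control replicate 1 (0.11) or control replicate 2 (0.66), and stood at −1.32 without control replicate 3.

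All 13 mitochondrial protein-coding genes together followed the same order of libraries in part. They held 2.87%, 1.86% and 1.31% of gene counts in malathion replicates 1, 2 and 3, against 2.81%, 5.89% and 0.560% in control replicates 1, 2 and 3. Of these counts the 7 complex I genes took 10.99%, 15.8% and 12.7% in malathion replicates 1, 2 and 3, against 15.1%, 15.4% and 10.4% in control replicates 1, 2 and 3. The share thus varied 1.51-fold over the libraries, whereas the summed CPM varied 15.6-fold. It averaged 13.1% ± 2.44 with malathion and 13.7% ± 2.81 in the control (SD, n = 3 each; exact permutation test, p = 1, adjusted p = 1 over 8 shares). The Wilson 95% interval of the share reached at most ± 0.147 percentage points. It takes each read as independent, and the libraries had no molecular identifiers. It therefore leaves out any error from reads that copy the same molecule.

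The 3 antiporter-like subunits, ND2, ND4 and ND5, are the large proteins that line the proton pathways of the membrane arm. ND5 (ENSSSCG00000018091) stood at 1158, 1325 and 79.1 CPM in malathion replicates 1, 2 and 3, against 1779, 4984 and 82.8 CPM in control replicates 1, 2 and 3. Each malathion library was below the control library of the same number, by ratios of 0.651, 0.266 and 0.956. Both replicate 3 libraries stood far below the other 4, and the groups overlapped only through control replicate 3. ND2 (ENSSSCG00000018069) stood at 942, 771 and 732 CPM in malathion replicates 1, 2 and 3, against 1169, 2105 and 44.8 CPM in control replicates 1, 2 and 3. The malathion libraries were close together for ND2, and malathion replicate 3 was 16.3 times as high as control replicate 3. For ND4 (ENSSSCG00000018087) the values were 647, 432 and 190 CPM in malathion replicates 1, 2 and 3, against 535, 998 and 32.5 CPM in control replicates 1, 2 and 3. Here malathion was above control in replicates 1 and 3 and below it in replicates 2.

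ND1 sits where the membrane arm meets the arm that oxidises NADH and takes part in the ubiquinone site. ND1 (ENSSSCG00000018065) stood at 230, 287 and 593 CPM in malathion replicates 1, 2 and 3, against 469, 699 and 416 CPM in control replicates 1, 2 and 3. Among the 7 it varied least between libraries, by 3.04 times in CPM from lowest to highest. Unlike the other 6 members it did not have control replicate 3 among its 2 lowest libraries. There it made up 71.3% of all complex I counts, against 7.68% to 11.1% in the other 2 control libraries. In malathion replicate 3 it made up 35.9%, against 7.28% and 9.74% in malathion replicates 1 and 2.

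ND3, ND4L and ND6 are small subunits next to the ubiquinone channel, and a loop of ND3 changes its exposure when the enzyme turns from its active to its resting form. ND3 (ENSSSCG00000018084) had 461, 348 and 1990 counts, or 17.9, 12.5 and 47.0 CPM, in malathion replicates 1, 2 and 3, against 329, 659 and 64 counts, or 11.8, 24.3 and 2.17 CPM, in control replicates 1, 2 and 3. Malathion replicate 3 was the highest library for ND3 and for no other member. ND4L (ENSSSCG00000018086) stood at 33.2, 31.9 and 0.780 CPM in malathion replicates 1, 2 and 3, against 48.2, 66.8 and 2.27 CPM in control replicates 1, 2 and 3. As for ND5, malathion was below the control of the same number in all 3 pairs, by ratios of 0.688, 0.478 and 0.343, though the lowest value rests on 33 counts. ND6 (ENSSSCG00000018092) stood at 127, 83.8 and 8.91 CPM in malathion replicates 1, 2 and 3, against 230, 220 and 3.05 CPM in control replicates 1, 2 and 3. Both replicate 3 libraries were far below the other 4, and the groups overlapped only through control replicate 3.

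**Figure D1:**
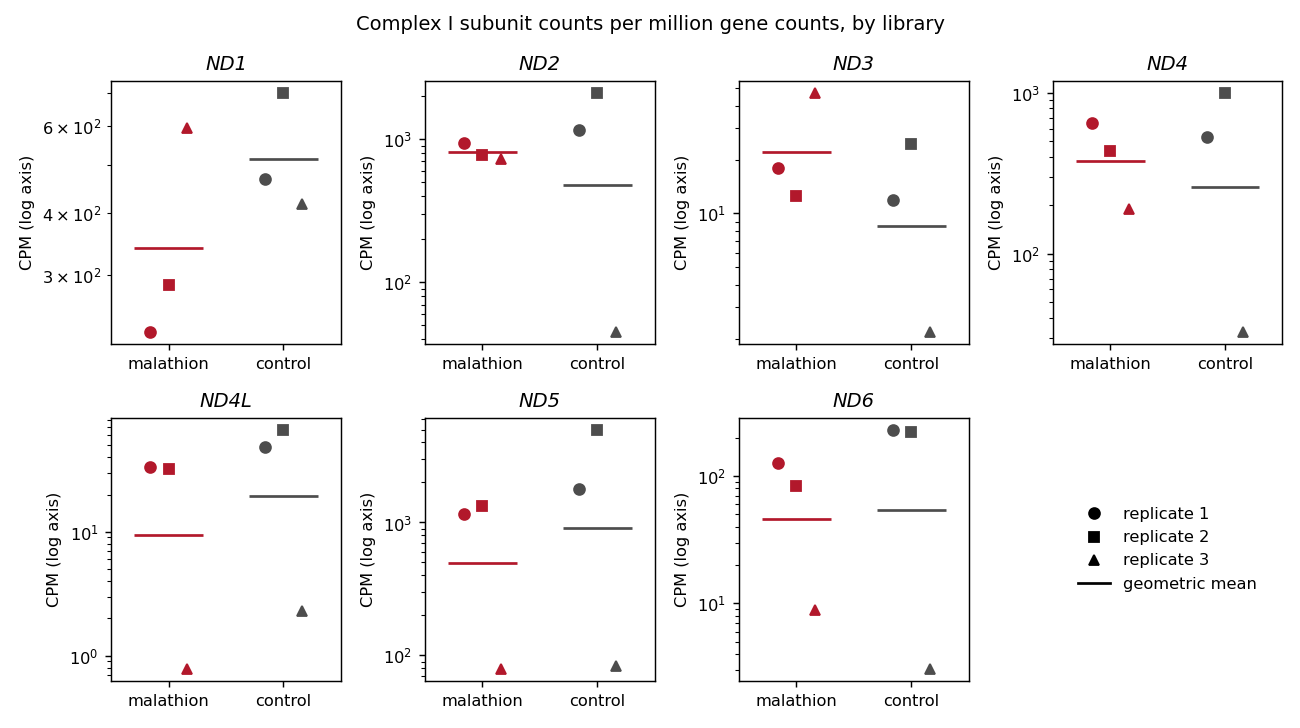
CPM (log axis, its range set for each gene) of the 7 mitochondrially encoded complex I genes in each library, with malathion left of control, marker shape for the replicate number and a line at the geometric mean of the group. Control replicate 2 was the highest library for 5 of the 7 genes, ND1 lay at 593 CPM in malathion replicate 3 and 416 CPM in control replicate 3, and ND5 ranged from 79.1 to 4984 CPM.

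By library, 5 of the 7 members were highest in control replicate 2, ND6 in control replicate 1 and ND3 in malathion replicate 3. COX1, COX2, COX3, ATP6, ATP8 and CYTB were also highest in control replicate 2. The lowest values lay in control replicate 3 for ND2, ND3, ND4 and ND6, in malathion replicate 3 for ND4L and ND5, and in malathion replicate 1 for ND1. Malathion was below the control of the same number for 5 of the 7 members in replicates 1, for 7 in replicates 2 and for 2 in replicates 3. No member had groups that did not overlap in CPM, beside 0.243% of the 10678 tested genes whose malathion values were all higher and 0.506% whose malathion values were all lower. Being below in all 3 pairs, as ND5 and ND4L were, was seen for 14.6% of the tested genes. None of the 7 was above in all 3 pairs, which was seen for 6.8%. The SD of log2(CPM + 1) over the 6 libraries was 0.61 for ND1, 1.31 for ND3, 1.77 for ND4, 1.93 for ND2, 2.21 for ND4L, 2.46 for ND5 and 2.47 for ND6, beside a median of 1.56 over all tested genes.

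The design sets malathion libraries against control libraries of metaphase II oocytes. Tested with edgeR's quasi-likelihood test over all 10678 genes that passed the filter on low counts, 0 of the 7 members passed an adjusted p of 0.05, and 0% of all tested genes passed in either direction. At an unadjusted p under 0.05 stood 1 member, ND3, and 383 genes in all, or 3.59%. DESeq2 gave a p for 9559 of the 10678 genes, but none for ND1, ND2 and ND3. It called 0 genes too, with 227 at an unadjusted p under 0.05. ND3 had a log2 fold change of 3.70 ± 1.51 (SE, 95% interval 0.47 to 6.94, unadjusted p = 0.0277, adjusted p = 0.9998, edgeR). It was above its control in 2 of 3 same-numbered pairs, and without malathion replicate 3 the fold change was −0.49. ND2 had 2.10 ± 1.97 (interval −2.10 to 6.31) and ND4 had 1.31 ± 1.47 (−1.84 to 4.47). ND1 had 0.43 ± 2.11 (−4.10 to 4.95), a value that went to −3.39 without malathion replicate 3 and to 2.94 without control replicate 3. The fold changes were −0.79 ± 1.57 for ND5 (−4.14 to 2.56), −0.77 ± 0.91 for ND4L (−2.72 to 1.19) and −0.24 ± 0.97 for ND6 (−2.31 to 1.82). These intervals leave room for changes of over 2-fold in either direction for each member except ND3. Other fits to the same 6 libraries differed for ND3, and none of those that gave it a p called it. Its interval spanned 0 at 1.33 (−1.08 to 3.74) with the replicate number as a block and at 1.01 (−3.04 to 5.07) with library totals alone. It left out 0 at 3.72 (0.84 to 6.59) with DESeq2, at 3.72 (0.41 to 7.04) with DESeq2 size factors in edgeR and at 3.71 (1.14 to 6.28) without the filter.

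The direction of several members depended on scaling. The fold changes above use TMM factors (trimmed mean of M-values), which were 2.26, 2.67 and 0.138 in malathion replicates 1, 2 and 3 and 2.39, 3.57 and 0.141 in control replicates 1, 2 and 3, so the replicate 3 libraries weigh heavily in them. With TMM, 4 members had a higher and 3 a lower fitted value after malathion (median 0.43 on the log2 scale beside −0.08 over all tested genes). With library totals alone, 1 was higher and 6 lower, with a median of −0.51 beside −0.33 over all tested genes, and ND1, ND2 and ND4 changed sign (−0.51, −0.44 and −0.30). Without both replicate 3 libraries the values were −1.08 for ND5, −0.90 for ND1, −0.85 for ND6, −0.61 for ND2, −0.54 for ND4L, −0.16 for ND4 and 0.10 for ND3. That fit tested 11637 genes and called 0, with 253 at an unadjusted p under 0.05 (edgeR). ND4L and ND5 were the members whose fitted value was below 0 in every fit made, and ND6 was above 0 without malathion replicate 2 (0.0082) or control replicate 1 (0.29).

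**Figure D2:**
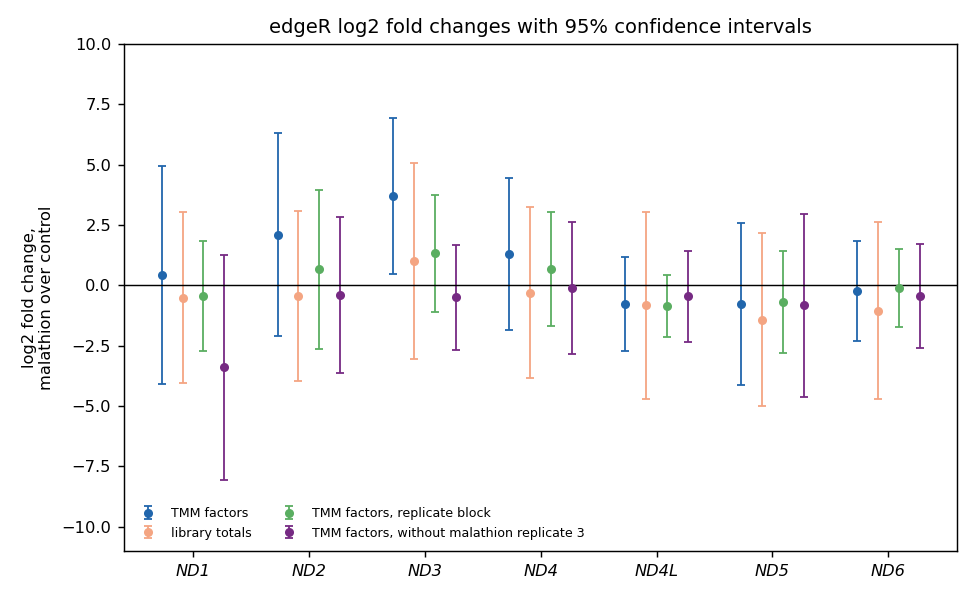
Log2 fold change of malathion over control for each member from edgeR (y axis; points are estimates, bars 95% confidence intervals) with TMM factors, with library totals, with TMM factors and the replicate number as a block, and with TMM factors without malathion replicate 3. ND4L, ND5 and ND6 lie below 0 in all 4, while ND1, ND2, ND3 and ND4 lie on different sides of 0; only ND3 with TMM factors has an interval (0.47 to 6.94) that leaves out 0.

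Shares among the 13 mitochondrial protein-coding genes do not depend on the scaling of libraries, though each depends on all 13 counts. ND3 took 0.0622%, 0.0672% and 0.360% of their counts in malathion replicates 1, 2 and 3, against 0.0422%, 0.0413% and 0.0388% in control replicates 1, 2 and 3. Its 3 malathion shares were all above its 3 control shares. The mean was 0.163% ± 0.171 with malathion and 0.0408% ± 0.00178 in the control (SD, n = 3 each), a difference of 0.123 percentage points. The exact permutation test gave p = 0.1, the smallest it can give, and an adjusted p of 0.8 over 8 shares. The difference was 0.0240 points without malathion replicate 3, and the malathion shares were still 1.47 and 1.63 times those of the same-numbered controls in replicates 1 and 2. Wilson 95% intervals of single libraries, which cover counting error only, ran from 0.0568% to 0.0681% in malathion replicate 1 and from 0.0379% to 0.0470% in control replicate 1. Among the 13 genes, groups did not overlap for 2, or 15.4%, the other being CYTB, the mitochondrial subunit of complex III, so such a pattern was not particular to ND3.

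ND4 took 2.26%, 2.32% and 1.46% in malathion replicates 1, 2 and 3, against 1.91%, 1.69% and 0.580% in control replicates 1, 2 and 3. Its share was higher in malathion in each same-numbered pair, but the groups overlapped through malathion replicate 3 (exact permutation test, p = 0.3, adjusted p = 0.96). ND5 took 4.04%, 7.11% and 0.606% in malathion replicates 1, 2 and 3, against 6.34%, 8.46% and 1.48% in control replicates 1, 2 and 3, and was lower in each pair (p = 0.6, adjusted p = 0.96, exact permutation test). Of the 13 genes, 4, or 30.8%, were higher in all 3 pairs and 1, or 7.69%, was lower in all 3. This reading by pairs was chosen after the values were seen.

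The shares of the remaining members showed no common direction. The mean share of ND1 was 2.30% ± 1.98 with malathion and 3.43% ± 3.48 in the control, and that of ND2 was 4.34% ± 1.18 with malathion and 2.85% ± 1.80 in the control (SD, n = 3 each). ND4L averaged 0.0976% ± 0.0841 with malathion and 0.109% ± 0.0658 in the control, and ND6 averaged 0.320% ± 0.218 with malathion and 0.416% ± 0.385 in the control (SD, n = 3 each). The exact permutation p lay between 0.5 and 1 for these 4 members, and the adjusted p between 0.96 and 1.

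**Figure D3:**
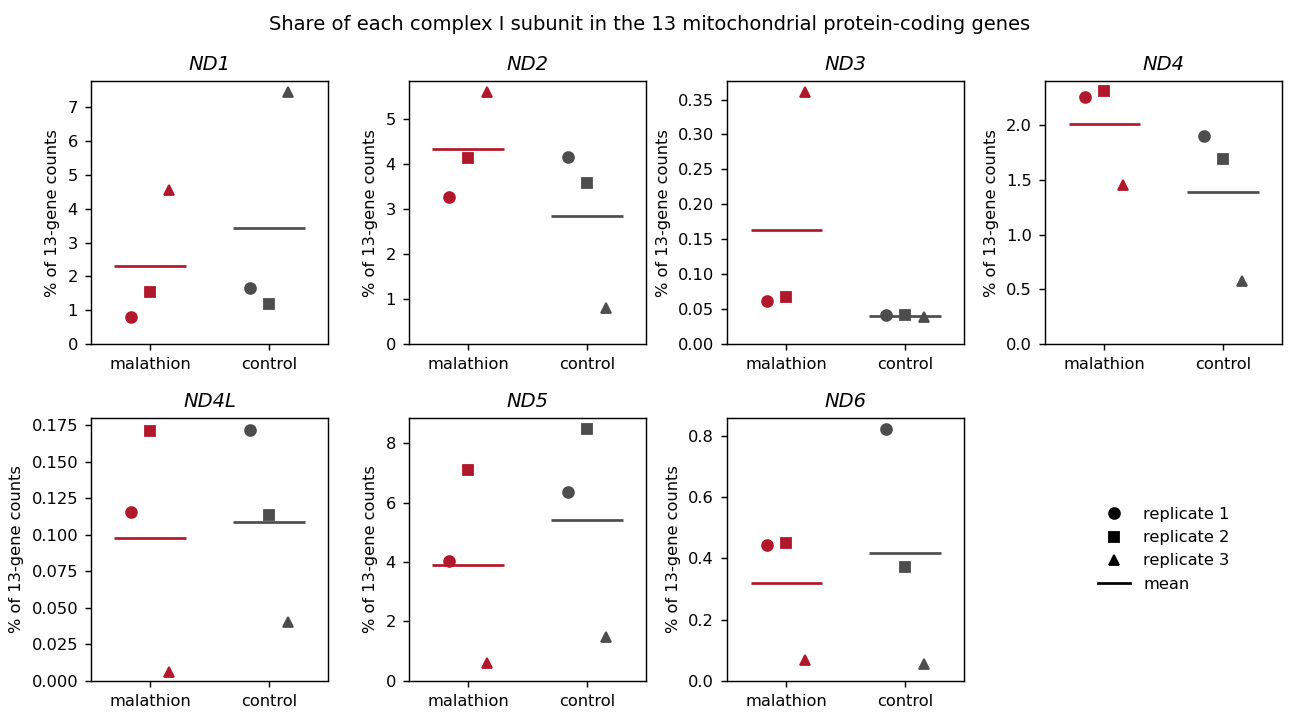
Share of each member in the counts of the 13 mitochondrial protein-coding genes (y axis in percent, starting at 0, its range set for each gene) in each library, with malathion left of control, marker shape for the replicate number and a line at the group mean. ND3 is the member whose groups do not overlap, with malathion at 0.0622% to 0.360% and control at 0.0388% to 0.0422%.

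The make-up of complex I transcripts in both replicate 3 libraries stood apart from the other 4. Leaving these 2 out, the share of a member among the 13 genes varied between the 4 libraries by 1.27 times for ND2, 1.37 times for ND4, 1.52 times for ND4L, 1.63 times for ND3, 2.09 times for ND1, 2.10 times for ND5 and 2.20 times for ND6. Over all 6 libraries the same ratios were 7.0 for ND2, 3.99 for ND4, 28.8 for ND4L, 9.29 for ND3, 9.29 for ND1, 13.96 for ND5 and 15.1 for ND6. ND1 had a high share in both replicate 3 libraries, at 4.55% in malathion replicate 3 and 7.43% in control replicate 3, beside no more than 1.67% in the rest. ND5, ND6 and ND4L had their lowest shares in these 2 libraries. Shares of the members also move with those of non-members. COX1 took 66.1% in malathion replicate 3 and 60.5% in control replicate 3, against 19.4% to 31.5% in the rest. ATP6 took 4.27% in malathion replicate 3 and 15.8% in control replicate 3, against 35.2% to 40.8% in the rest.

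Other members parted the replicate 3 libraries from each other. ND2 took 5.61% in malathion replicate 3 and 0.800% in control replicate 3, and lay between 3.28% and 4.17% in the other 4 libraries. ND3 was 9.29 times higher in share in malathion replicate 3 than in control replicate 3. These libraries are also those with the fewest genes detected and the lowest oocyte marker sums, given above, whose part in these values was not tested.

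**Figure D4:**
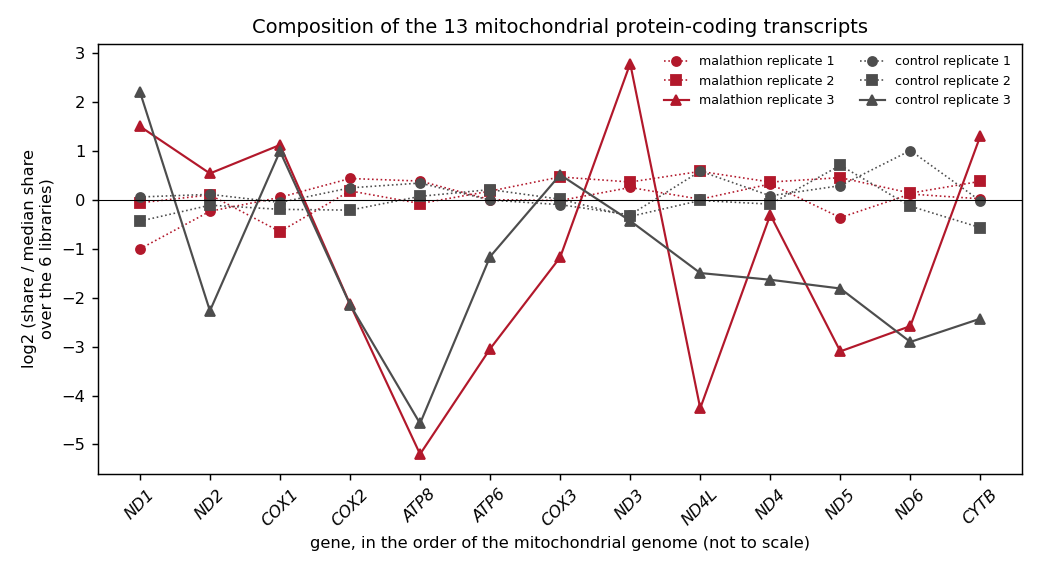
Log2 of each gene's share among the 13 mitochondrial protein-coding genes divided by its median share over the 6 libraries (y axis), with genes in the order of the mitochondrial genome (x axis, not to scale), 1 line per library, red for malathion and grey for control, solid for replicates 3. The 4 libraries of replicates 1 and 2 stay within about 1 log2 unit of the median, whereas the replicate 3 libraries leave it further for many genes. Among the complex I genes these departures run from −4.26 for ND4L to 2.79 for ND3 in malathion replicate 3 and from −2.90 for ND6 to 2.21 for ND1 in control replicate 3; ATP8, no member, lies lowest in both (−5.20 and −4.57).

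Neighbouring genes did not keep a fixed ratio. ND4L and ND4 overlap in the RefSeq annotation of assembly Sscrofa11.1 and share an mRNA in human cells. For each 100 counts of ND4 there were 5.12, 7.39 and 0.410 counts of ND4L in malathion replicates 1, 2 and 3, against 9.02, 6.70 and 6.99 in control replicates 1, 2 and 3. Malathion replicate 3 was thus far below the other 5 libraries. ND5 and ND6 also overlap there, on opposite strands. ND6 had 10.99, 6.32 and 11.3 counts per 100 of ND5 in malathion replicates 1, 2 and 3, against 12.95, 4.41 and 3.69 in control replicates 1, 2 and 3. A read that touches both genes of an overlap can be set aside as ambiguous by the counting tool, and that row held 2.22% to 2.96% of the reads of a malathion library and 1.91% to 4.08% of those of a control library. The strand setting is not given in the sources used here, so counts of ND6 may include reads from the opposite strand. The libraries were also made from polyadenylated RNA, while ND6 mRNA in human cells lacks a poly(A) tail. How far the ND6 values given here reflect its mRNA was not tested.

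Across the 6 libraries, log2(CPM + 1) of ND4, ND4L, ND5 and ND6 went together, with Pearson's r between 0.82 and 0.98 for each pair among them. Among the members, ND2 was closest to ND4 (r = 0.96), and ND3 to ND2 (r = 0.80). ND1 followed none of the other 6 members, with r between −0.19 and 0.29. Such closeness was not particular to complex I. The closest mitochondrial protein-coding gene lay outside it for each member but ND4. It was CYTB for ND2 (r = 0.98) and ND3 (0.88), and ATP6 for ND4L and ND5 (0.99 each). For ND6 it was COX2 (0.99), and for ND1 it was COX1 (0.48). Not every outside gene was close, as r with ND4L was 0.39 for COX1 and 0.51 for CYTB. These values describe 6 libraries that share depth and make-up, and no p is given. Of 4712 symbol-bearing nuclear genes averaging 10 CPM or more, 715 had an r of at least 0.9 with the summed complex I level. The 5 nearest were ATAD2B (0.995), ZFP36L2 (0.994), MARCHF6 (0.991), MAGI3 (0.991) and ATF7IP (0.986). MAGI3, for example, stood at 465, 546 and 334 CPM in malathion replicates 1, 2 and 3, against 620, 937 and 204 CPM in control replicates 1, 2 and 3.

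The nuclear genes of complex I gave no called member in either direction. Of the 7 core subunits of the nuclear part, which carry the flavin and the iron-sulfur clusters, 4 were tested, and 2 had a higher and 2 a lower fitted value after malathion (median log2 fold change −0.22, beside −0.08 over all tested genes, and 0.19 without either malathion replicate 3 or control replicate 2). NDUFS3 stood at 5.54, 4.32 and 1.73 CPM in malathion replicates 1, 2 and 3, against 5.83, 6.35 and 0.0339 CPM in control replicates 1, 2 and 3 (log2 fold change 1.83 ± 1.36, SE, and −0.076 with library totals alone). NDUFS1, the largest iron-sulfur subunit, had −1.98 ± 1.75, where control replicate 2 gave 580 counts and no other library over 103, and 0.33 without control replicate 2.

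Of 30 accessory subunits 19 were tested, 7 with a higher and 12 with a lower fitted value (median −0.25, and 0.40 without control replicate 2). NDUFC2 counts were 42146 in control replicate 3 and no higher than 650 in the rest (−9.75 ± 3.53, SE, −6.02 with library totals and −0.46 without control replicate 3). NDUFA9 counts were 2226 in control replicate 2 and no higher than 93 in the rest (−4.09 ± 1.69, and −1.36 without that library). Of 19 assembly factors 13 were tested, 4 with a higher and 9 with a lower value (median −0.48, and 0.41 without control replicate 2). NDUFAF5 had −2.17 ± 1.39 and TMEM186 had −1.87 ± 1.69, both with their most counts in control replicate 2. These 2 stood at 0.38 and −0.15 without that library.

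Genes that make and keep mitochondrial RNA were split 10 to 8 among 18 tested of 27 (median 0.17, and −0.11 without control replicate 3), and none was called. TFAM, which packages mitochondrial DNA and starts its transcription, gave 7698 counts in control replicate 2 and no more than 57 in any of the rest (−4.29 ± 1.73, SE, −7.41 with library totals and −0.50 without that library). That library also held the highest CPM of 5 of the 7 members, and of COX1, COX2, COX3, ATP6, ATP8 and CYTB. NDUFS1, NDUFS3, NDUFA9, NDUFAF5 and TMEM186, each named for its low p, were highest in it too. NDUFC2 and SUPV3L1, named in the same way, were highest in other libraries. How many of all tested genes were highest in control replicate 2 was not counted. A link between TFAM and the members was not tested. SUPV3L1, the helicase of the mitochondrial RNA degradosome, had 1.45 ± 1.03 (0.79 with library totals). LRPPRC, which stabilises the mRNAs of the heavy strand, stood at 82.8, 96.6 and 8.27 CPM in malathion replicates 1, 2 and 3, against 87.7, 46.7 and 1.29 CPM in control replicates 1, 2 and 3 (1.17 ± 0.95, and 0.47 with library totals). GRSF1, a protein of mitochondrial RNA granules, had −0.18 ± 1.41, and the value went to −2.60 without malathion replicate 3 and to 2.20 without control replicate 3. SLIRP, the partner of LRPPRC, had at most 7 counts in any library and was not tested. FASTK, which the ND6 mRNA needs in mouse and human cells, had no count in any library, which allows up to 3 counts, or 0.0709 to 0.116 CPM, in each.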

How the data were processed

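The deposited files hold read counts per Ensembl gene, 1 file per library, not normalized by the authors as far as the values show. STAR 2.5.3a, HTSeq 0.9.1 and DESeq2 1.20.0 were used, per the submitters' processing notes. Their roles, the build, annotation and strand option are not given in the sources used here. Libraries were made with a modified Smart-seq2 method from polyadenylated RNA, per the labels' protocols, without molecular identifiers. The 5 HTSeq summary rows, 36.7% to 42.6% of the reads of a file, were left out of totals and tests. Reads of mitochondrial genes with near-identical nuclear copies may be in the row for reads aligned to several places (2.45% to 8.37%).

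Symbols came from a table of Ensembl names, which matched 14857 of 25880 identifiers. CPM are counts scaled to 1000000 gene counts per library. Shares are percentages of the counts of the 13 mitochondrial protein-coding genes. Their Wilson 95% intervals cover counting error only and take each read as independent. Levels of different genes were not compared, and no coordinates or gene lengths are given, because no build is named. The order and overlap of neighbouring mitochondrial genes came from RefSeq (assembly Sscrofa11.1).

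The main test was the two-sided quasi-likelihood F test of edgeR 4.0.16 (R 4.3.3) with TMM factors, filterByExpr (minimum count 10, minimum total 15) and Benjamini-Hochberg adjustment over 10678 genes (threshold 0.05). Each SE is the fold change divided by the square root of F. The biological coefficient of variation was 1.10. The script was tested on simulated data with less spread than these libraries and no difference in make-up between replicates. That test therefore does not show its power or error rate for these data. Summed CPM and shares were compared by exact permutation tests over libraries, shares adjusted over 8 values. Alternatives were other scaling factors, no filter, DESeq2 1.42.0, the replicate number as a block, and leaving out libraries.

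No label says what a replicate number marks. Deviations from the group's mean correlated between libraries with the same number (r across genes = 0.466, 0.467 and 0.573 for numbers 1, 2 and 3). These values cannot show pairing. Deviations within a group are tied to each other, replicates 3 stood apart in both groups, and differently numbered libraries were not compared. Same-numbered libraries were read as pairs only in the replicate block, an alternative, and in ratios within pairs. The main tests carry no block.

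The members and gene lists were chosen with earlier results of these data known. Named genes were the 7 members, 2 genes per list (those of lowest p, 4 lists), LRPPRC, SLIRP, FASTK and GRSF1, and the 5 nuclear genes most correlated with the summed members over 6 libraries. The marker genes VCAN, KITLG, AMH, FSHR, ZP2, MOS, NOBOX and OOEP were chosen for naming after their values were seen.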

Additional observations from a re-analysis of the deposited data

How the results depend on the processing

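Of 368 recomputed values, 316 kept their direction and side of the threshold (or, for counts and list medians, stayed within the tolerance). Another 38, none a list median, took the other sign. A further 14 counts or list medians moved (counts by over 1.5 times, medians by over the SD of the 3 pairs). Medians were judged by size alone, so that of the assembly factors counted as kept at 0.41 without control replicate 2, against −0.48. Exact tests of summed CPM and shares could not reach the threshold, and the replicate block could not alter their values. No member was called under any alternative, though DESeq2 gave no p for ND1, ND2 and ND3. DESeq2 fold changes without a p were counted as kept where their sign held. The count of called genes was 0 with all libraries, 60 without the filter on low counts, and from 0 to 3 when leaving out 1 library (3 without malathion replicate 1, and 3 without malathion replicate 2). The cause was not tested.

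The log2 difference of summed complex I CPM ranged from −1.32 to 0.66 when leaving out 1 library, and the difference of the complex I share from −2.14 to 0.55 percentage points. With the pairing kept (replicate block), these differences are the same by arithmetic, at −0.19 and −0.52, and only the p could change. It was 0.75 for the sum and 1 for the share (exact tests within pairs, smallest possible p 0.25). In the edgeR fit the block changed no call. Signs also turned for single members. With library totals the log2 fold change was −0.51 for ND1, −0.44 for ND2 and −0.30 for ND4. With the replicate block it was −0.43 for ND1, and −0.61 with block and library totals, an alternative chosen after seeing the data. Without both replicate 3 libraries it was −0.90 for ND1, −0.61 for ND2 and −0.16 for ND4. Leaving out 1 library gave −3.39 to 2.94 for ND1, −0.38 to 2.61 for ND2, −0.49 to 4.32 for ND3, −0.11 to 1.76 for ND4 and −0.64 to 0.29 for ND6. Among nuclear genes, NDUFS3 turned to −0.076 with library totals and −0.050 without both replicate 3 libraries. Leaving out 1 library gave −3.78 to 0.33 for NDUFS1, −2.67 to 0.38 for NDUFAF5 and −2.60 to 2.20 for GRSF1. Without both replicate 3 libraries the share difference was −0.163 points for ND2 and 0.000737 points for ND4L. The share difference when leaving out 1 library ran from −2.26 to 0.866 points for ND1, −0.0479 to 0.0348 for ND4L, −3.49 to 0.144 for ND5, and −0.277 to 0.106 for ND6.

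Shares weighted by gene length and shares with the 2 mitochondrial rRNAs were not run, because no build is named and the table of names gives no symbol to the rRNA genes. Depth limits mainly ND4L, with 33 counts in malathion replicate 3, and ND3, with 64 in control replicate 3.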
